A study of Homo sapiens with 38 samples.

Results

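The Sp1 IDR-LacI line expresses the N-terminal intrinsically disordered region (IDR) of Sp1 fused to the bacterial lac repressor, LacI. It was built in U2OS cells in which the SP1 gene itself had been tagged with V5 and Halo. Endogenous Sp1 was profiled there with a rabbit and a mouse anti-V5 antibody, and in the parental line, which carries no construct by the labels. These are the 4 anti-V5 samples of the Sp1 IDR-LacI line and the 4 of the parental line, out of 38 samples, with 2 biological replicates for each line and antibody. The members were chosen by line and antibody alone, and the question was whether endogenous Sp1 peaks were kept, lost or gained while the IDR was present.

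Each line and antibody has 1 list of peaks from CUT&RUN, in which an antibody bound to the protein recruits a nuclease, and the DNA it releases is sequenced. A list holds peaks found in both replicates at an irreproducible discovery rate of at most 0.1. It held 1987 peaks (rabbit) and 1830 (mouse) in the parental line, and 2126 (rabbit) and 1739 (mouse) in the Sp1 IDR-LacI line. Merging peaks that shared at least 1 bp gave 2837 sites. Read depth was not analysed here, and absence from a list means only that a site did not pass, not that Sp1 was absent.

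The parental line is a U2OS (osteosarcoma) clone homozygous for V5-Halo-Sp1. The Sp1 IDR-LacI line derives from it, with a doxycycline-inducible SNAPf and FLAG-tagged construct with nuclear localization signals at the AAVS1 locus. The label names the insert Sp1 AD-LacI, for activation domain. The IDR was thus not free but fused to LacI, which has no cognate sites in human DNA, and it carried no V5 tag. All 8 samples are labelled as given 1 μg/ml doxycycline for 36 h before and 36 h after sorting for cells with the construct. What the sort selected in parental cells is not stated, and the construct's level was not measured by these lists.

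Sp1 is a zinc finger transcription factor that binds GC boxes in the promoters of many widely expressed genes. Its long glutamine-rich IDR activates transcription and lets Sp1 molecules contact one another.

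GC boxes were frequent in the DNA under the peaks. A GC box (GGGCGG, or CCGCCC on the other strand) lay within 100 bp of the summit in 80.9 to 84.4% of peaks in the 4 lists, against 7.2 to 8.8% of windows of the same length 2000 bp away. The related hexamer GGGAGG (or CCTCCC) lay near 51.5 to 53.6% of summits, against 36.0 to 37.9% of those windows. Summits within 1000 bp of an annotated start made up 85.6 to 90.3% of a list. The windows were not matched for this, so the contrast does not by itself tell Sp1 peaks from other promoter peaks.

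Sequences at the summits of sites that the results turn on are given below as 81 bases of hg38, plus strand, 5′ to 3′, with GC boxes and GGGAGG or CCTCCC hexamers in capitals. EMP3 (chr19:48321421-48321501) and MPP7 (chr10:28303112-28303192) are strong parental sites absent from both Sp1 IDR-LacI lists.
EMP3: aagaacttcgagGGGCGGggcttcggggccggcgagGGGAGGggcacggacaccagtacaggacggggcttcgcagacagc
MPP7: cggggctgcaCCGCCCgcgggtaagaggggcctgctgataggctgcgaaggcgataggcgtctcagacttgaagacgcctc
ROR2 (chr9:91796959-91797039), RYR1 (chr19:38507176-38507256) and MYADM (chr19:53867736-53867816) are sites of both Sp1 IDR-LacI lists absent from both parental lists.
ROR2: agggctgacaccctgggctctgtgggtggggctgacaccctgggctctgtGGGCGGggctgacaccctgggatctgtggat
RYR1: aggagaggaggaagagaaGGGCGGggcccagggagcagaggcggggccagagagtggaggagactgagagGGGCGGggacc
MYADM: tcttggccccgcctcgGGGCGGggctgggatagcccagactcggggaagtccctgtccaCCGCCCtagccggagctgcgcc
PTPRU (chr1:29283331-29283411), ENSG00000262898 (chr17:83193091-83193171) and JAKMIP3 (chr10:132158753-132158833) are sites of all 4 lists at which the peak was stronger in the Sp1 IDR-LacI line with each antibody.
PTPRU: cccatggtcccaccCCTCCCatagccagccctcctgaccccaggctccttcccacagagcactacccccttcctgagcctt
ENSG00000262898: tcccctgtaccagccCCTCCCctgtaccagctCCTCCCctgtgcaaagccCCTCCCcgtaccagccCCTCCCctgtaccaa
JAKMIP3: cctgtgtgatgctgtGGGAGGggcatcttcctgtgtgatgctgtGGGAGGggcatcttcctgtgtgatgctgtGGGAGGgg
CHEK2 (chr22:28742489-28742569) is the site with the largest fall that shows in every replicate value. The other windows are centred on their summits, but that of CHEK2 is not, since its summit is at 28742513. SP1 (chr12:53379896-53379976) is the promoter of the tagged gene.
CHEK2: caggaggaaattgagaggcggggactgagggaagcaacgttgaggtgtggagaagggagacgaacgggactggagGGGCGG
SP1: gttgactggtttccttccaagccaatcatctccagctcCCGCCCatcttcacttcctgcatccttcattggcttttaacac

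Most parental peaks were kept, and those absent were mostly weak. With rabbit anti-V5, 1567 of 1987 parental peaks (78.9%, 95% Wilson interval 77.0 to 80.6%) overlapped a peak of the Sp1 IDR-LacI list and 420 (21.1%) did not. With mouse anti-V5, 1390 of 1830 (76.0%, 73.9 to 77.9%) were kept and 440 (24%) were lost. Of the Sp1 IDR-LacI peaks, 561 of 2126 (26.4%) were new with rabbit and 346 of 1739 (19.9%) with mouse. The same share computed between the antibodies within 1 line shows how far lists differ when the antibody changes and the line does not. It does not give how far lists made again with 1 antibody would differ. In the parental line, 75.7% of rabbit peaks overlapped a mouse peak and 81.9% of mouse peaks a rabbit peak, and in the Sp1 IDR-LacI line these shares were 65.8 and 80.3%. Intervals and p-values over peaks treat peaks as independent and describe these lists, since cultures did not enter them.

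Peak strength is given as the −log10 p of the merged peak, which equals the lower of the replicate values. The median strength was 21.5 (rabbit) and 24 (mouse) in the parental lists and 18.7 and 20.9 in the Sp1 IDR-LacI lists. The strongest 25% of the parental rabbit list was kept to 92.2% and the weakest 25% to 52.9%. With mouse anti-V5 these shares were 96.9 and 43.7%. In the other direction, 92.7% of the strongest 25% of Sp1 IDR-LacI rabbit peaks and 44.5% of the weakest 25% were found in the parental list, and 95.2 and 57.5% with mouse. On a scale where 100 is the strongest peak of a list and 0 the weakest, the median rank of lost peaks was 21.0 (rabbit) and 19.2 (mouse), against 57.4 and 60.3 for kept ones. New peaks had medians of 23.7 and 22.8. Of the 420 lost rabbit peaks, 296 were weaker than 2 times the lowest value in their list, 8.46, as were 311 of the 440 lost mouse peaks against a lowest value of 8.67.

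**Figure D1:**
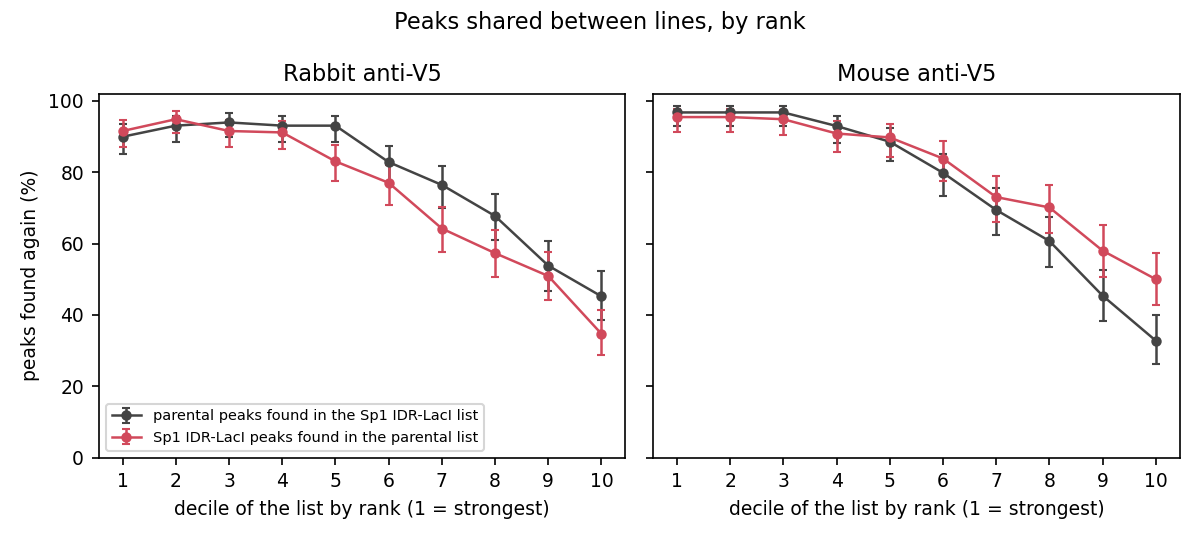
Share of peaks found again in the other line (percent, y axis) in each decile of a list by rank (x axis, 1 is the strongest), for rabbit (left) and mouse anti-V5 (right), with 95% Wilson intervals. Parental peaks (dark) go from 89.9% in the strongest decile to 45.2% in the weakest with rabbit and from 96.7 to 32.8% with mouse, and Sp1 IDR-LacI peaks (red) fall with rank in both panels too.

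Strong peaks missing with 1 antibody were mostly present with the other. Of the 39 peaks among the strongest 25% of the parental rabbit list lost from the Sp1 IDR-LacI rabbit list, 33 (84.6%, 70.3 to 92.8%) lay in the mouse list of that line. For mouse, 10 of 14 such peaks (71.4%) lay in the rabbit list of that line. New peaks among the strongest 25% were alike, with 30 of 39 (76.9%) rabbit and 14 of 21 (66.7%) mouse peaks present in the parental list of the other antibody. Over all lost peaks the shares were 31% (130 of 420, rabbit) and 60.9% (268 of 440, mouse).

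Requiring both antibodies left few changes. Of 1498 sites in both parental lists, 1107 (73.9%) were in both Sp1 IDR-LacI lists, 209 in the rabbit list alone, 101 in the mouse list alone, and 81 in neither (5.41%, 4.37 to 6.67%). Of 1395 sites in both Sp1 IDR-LacI lists, 82 were in neither parental list (5.88%, 4.76 to 7.24%). The same parental cells also gave a Sp1 WT line, with wild-type Sp1, and a Sp1 IDR-CTCF DBD line, with the IDR on the DNA-binding domain of CTCF. Of the 82 sites, 64 (78.0%) were in at least 1 anti-V5 list of the Sp1 IDR-CTCF DBD line and 43 (52.4%) in one of the Sp1 WT line. Of the 81 lost sites, 40 (49.4%) and 27 (33.3%) were. Sites in 1 list only were more numerous, with 287 in the Sp1 IDR-LacI rabbit list, 207 in the parental rabbit list, 160 in the Sp1 IDR-LacI mouse list and 91 in the parental mouse list.

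**Figure D2:**
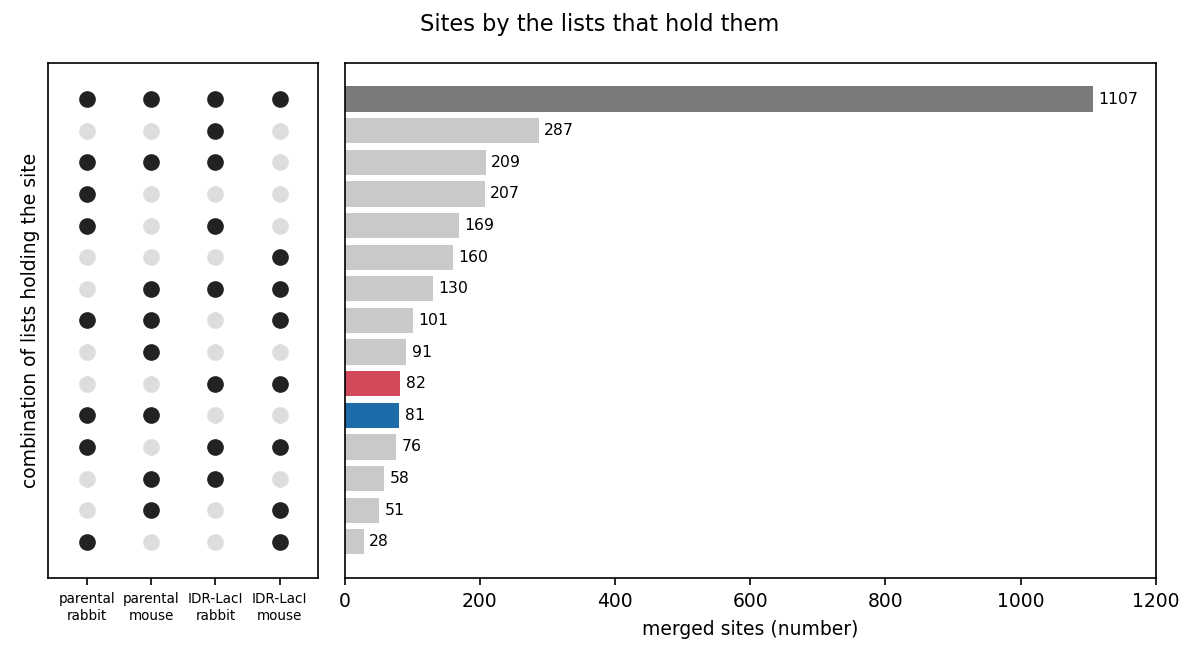
Number of merged sites (x axis) for each combination of the 4 lists that holds them (rows, dark dots mark the lists). Sites in all 4 lists number 1107, sites lost with both antibodies 81 (blue) and sites new with both 82 (red).

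The 81 sites lost with both antibodies were mostly weak ones. Their parental strength ran from 8.69 to 60.2 with rabbit, with a median of 13.1, and from 8.67 to 83.8 with mouse, with a median of 13. The 82 sites new with both ran from 8.69 to 120 with rabbit (median 14.5) and from 9 to 148 with mouse (median 13.2). The mean rank over both lists was above 50 at 5 of the lost sites, at 12 of the new sites and at 761 of the 1107 kept ones.

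Lost, new and kept sites had similar shares of Sp1 WT peaks and GC boxes, and fewer of the lost and new ones lay at protein-coding promoters, with values as follows. A peak of the induced Sp1 WT FLAG list overlapped 84.0% of lost, 81.7% of new and 84.3% of kept sites, and a GC box lay near 84.0, 80.5 and 85.0% of their summits. Protein-coding promoters, within 1000 bp of an annotated start, held 62 lost (76.5%, 66.2 to 84.4%), 61 new (74.4%, 64.0 to 82.6%) and 957 kept sites (86.4%, 84.3 to 88.3%). Promoters of noncoding genes held 10 lost (12.3%), 6 new (7.32%) and 45 kept sites (4.07%). None of the 81 lost sites (upper 95% bound 4.53%) and none of the 82 new ones (4.48%) overlapped the FLAG list of the Sp1 IDR-LacI construct itself, against 1 of 1107 kept sites. The merged lost sites had a median width of 522 bp, the new ones 603 bp and the kept ones 860 bp. A kept site merges peaks from more lists than a lost or new one, which can widen it, so these widths are not comparable. Judged by each antibody alone, lost parental peaks had medians of 520 (rabbit) and 542 bp (mouse), against 649 and 708 bp for kept ones. New Sp1 IDR-LacI peaks had 563 and 437 bp, against 663 and 589 bp for those also found in the parental list.

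The strongest lost site was the promoter of EMP3, a tetraspan membrane glycoprotein (chr19:48321027-48322515, summit 48 bp from the start and in an intron of ODAD1). Its replicate values were 60.2 and 75.3 with rabbit and 83.8 and 119 with mouse anti-V5 in the parental line, in the order of the replicate columns, which the labels do not tie to replicates 1 and 2. It was in neither Sp1 IDR-LacI list, while the Sp1 WT line held it at 45.1 (rabbit) and 48.2 (mouse). The Sp1 IDR-CTCF DBD line held it at 59.2 with mouse and lacked it with rabbit.

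The promoter of MPP7, a scaffold protein of cell junctions (chr10:28302517-28303359), had parental values of 35.8 and 55.7 with rabbit and 66.3 and 97 with mouse. It was absent from both Sp1 IDR-LacI lists. The other lines held it, at 29 and 42.4 with Sp1 WT and at 31.2 and 43.6 with Sp1 IDR-CTCF DBD (rabbit, then mouse). The promoter of ATXN7L3, a subunit of the deubiquitinating module of the SAGA coactivator, had 32.5 and 55.4 with rabbit and 33.3 and 105 with mouse. A site in an intron of PTPRN2, 124 kb from the nearest start, of the noncoding gene ENSG00000231980, had 47.1 and 26.1 with rabbit and 59.1 and 40.5 with mouse. At that site 69.6% of 31-base summit words recur elsewhere in hg38. These 4 were the lost sites with the highest mean rank.

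The remaining 6 lost sites named by the rule were weaker. HRH1, the histamine H1 receptor, had 25.7 and 39.7 with rabbit and 32 and 58.3 with mouse at its promoter. GANAB, the catalytic subunit of glucosidase II of the endoplasmic reticulum, had 23 and 34.5, and 21.2 and 45.5. The noncoding gene ENSG00000284699 had 18.8 and 39.8, and 24.5 and 41.5, and was absent from the 4 anti-V5 lists of the other lines too. MAGED1, a MAGE family protein, had 23.1 and 22.2, and 17.7 and 39, and KIAA2026 had 20.7 and 23, and 19.2 and 39.6. A copy of U2, the spliceosomal RNA, had 13 and 33.2, and 32.5 and 74.8, with 63.7% of the 31-base words at its summit found at more than 1 position in hg38.

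By mean rank, the new sites FAM86C2P (99.2) and PRMT1 (96.1) stood higher than EMP3, the strongest lost site (90.4). The next new site, at ROR2, had a mean rank of 78.4. The start of FAM86C2P, a pseudogene (chr11:67804545-67806483), had 120 and 154 with rabbit and 148 and 168 with mouse in the Sp1 IDR-LacI line and was in neither parental list. The Sp1 IDR-CTCF DBD line held it at 116 and 130, and the Sp1 WT line at 9.82 with rabbit alone. Of its 31-base words 53.2% occur elsewhere in hg38. The promoter of PRMT1, the main type I protein arginine methyltransferase (chr19:49675721-49678176), had 92.5 and 113 with rabbit and 92.4 and 92.8 with mouse. It was absent from both parental lists and from the 4 anti-V5 lists of the other lines, while the FLAG list of Sp1 WT held it at 63.7. None of its 31-base words is repeated.

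Of the other new sites named by the rule, 3 lay away from starts. ROR2, a receptor tyrosine kinase of Wnt signalling, held one in an intron 21.2 kb from the start, with 33.9 and 31.5 with rabbit and 48.5 and 49.1 with mouse. RYR1, the calcium release channel of skeletal muscle, held one in an intron 11 kb from its start, with 23.6 and 38.1, and 45.3 and 51.4. A site 15.1 kb from ADRA2C, an adrenergic receptor, had 34.7 and 47.8, and 36.6 and 43.2. The share of 31-base summit words that recur elsewhere in hg38 was 100% at ROR2, 0.0% at RYR1 and 1.17% at ADRA2C. The Sp1 WT line held these 3 sites with both antibodies and the Sp1 IDR-CTCF DBD line held RYR1 and ADRA2C with both and ROR2 with mouse alone, at 38.2.

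The promoters among them belonged to MIRLET7A1HG, the host gene of let-7 microRNAs (39.4 and 37.9 with rabbit, 34.7 and 31.7 with mouse), LMTK3, a membrane kinase (34.2 and 37, 32.5 and 51.3), and ZNF414, a zinc finger gene (33.5 and 54.3, 31.8 and 56.5). BICDL1, a dynein adaptor, had 34.4 and 59 with rabbit and 26.8 and 33.7 with mouse. MYADM, a membrane protein, had 28.1 and 31.8, and 31.8 and 34.1. All 5 were in the 4 lists of the other lines as well, at 10.5 to 38.3.

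**Figure D3:**
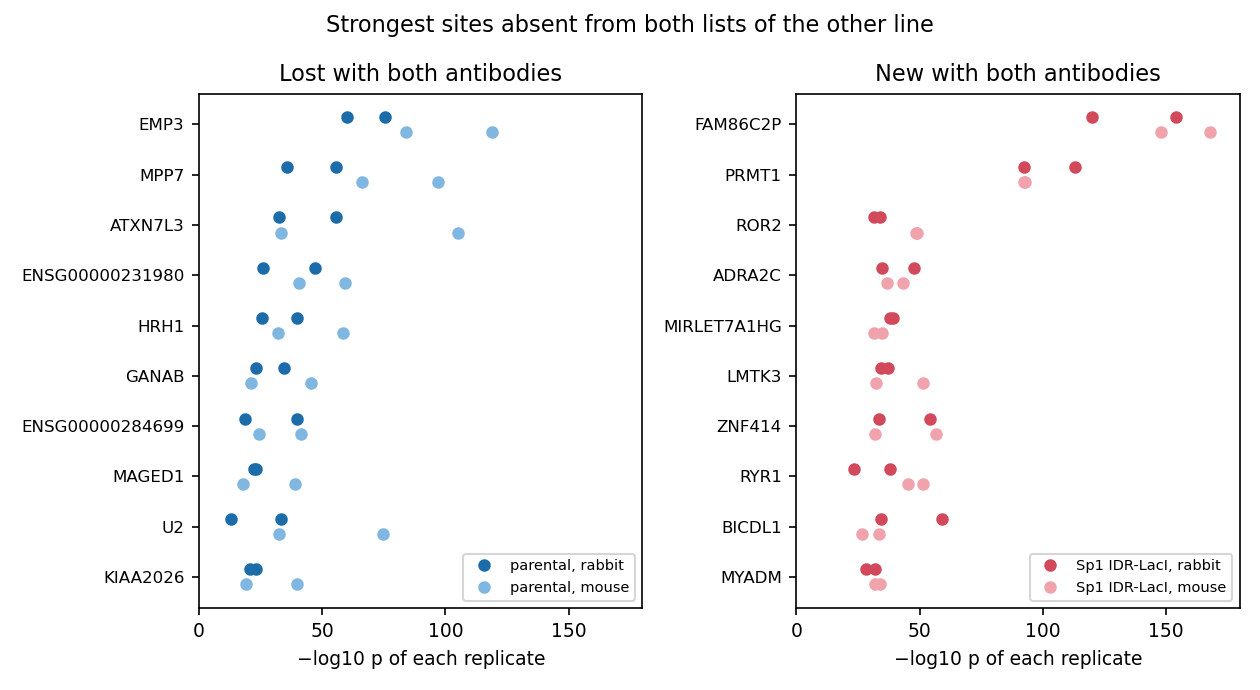
Replicate values (−log10 p, x axis) of the 10 strongest sites lost with both antibodies in the parental lists (left) and the 10 strongest new with both in the Sp1 IDR-LacI lists (right). Each site has 2 rabbit values (dark) and 2 mouse values (light), and FAM86C2P and PRMT1 stand above the other new sites with values from 92.4 to 168.

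Distal peaks were kept less often than promoter peaks with rabbit, and new peaks were more often distal with each antibody. With rabbit, 80% of parental promoter peaks (1422 of 1777) and 69.0% of distal peaks (145 of 210, over 1000 bp from any start) were kept (Fisher's exact test, two-sided, odds ratio 1.8, adjusted p = 0.0006 over 4 tests). With mouse, 75.5 and 79.8% were kept (Fisher's exact test, odds ratio 0.783, adjusted p = 0.23). Sp1 IDR-LacI promoter peaks were found in the parental list more often than distal ones with both antibodies. The shares were 75.4 against 59.8% with rabbit (odds ratio 2.06, Fisher's exact test, adjusted p = 1.1e-06) and 84.0 against 56.8% with mouse (odds ratio 4.0, adjusted p = 1.5e-19). At an IDR of at most 0.01 neither rabbit difference passed, with odds ratios of 1.61 for kept parental peaks (Fisher's exact test, adjusted p = 0.12) and 1.35 for Sp1 IDR-LacI peaks found again (adjusted p = 0.14). The lowest was 39.6% of the intergenic mouse peaks (53 of 134).

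New mouse peaks included repeated sequence. Of the 346, 94 (27.2%) lay in windows where at least 50% of 31-base words occur at more than 1 position in hg38, against 51 of 561 new rabbit peaks (9.09%). Without such peaks the mouse odds ratio was 1.68 (Fisher's exact test, adjusted p = 0.034). Of the 346, 47 (13.6%, 10.4 to 17.6%) also overlapped the 228 peaks of the line's mouse anti-FLAG list, and 18 the FLAG list of LacI alone. All 47 lay in repeated sequence, none in a promoter or near a GC box, and none in the line's rabbit anti-V5 list. Of the new rabbit peaks, 2 overlapped that FLAG list. The FLAG lists of the SNAP-NLS control line (nuclear SNAPf tag alone) and the parental line together overlapped 25 of the 346 (7.23%). All 25 lay in repeated sequence. Without peaks of these control lists the mouse odds ratio was 3.07 (Fisher's exact test, adjusted p = 1.4e-11). Whether those 47 peaks are sites of endogenous Sp1 was not tested.

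Among protein-coding genes, 2056 (rabbit) and 1915 (mouse) had a promoter peak in the parental lists, and 2171 and 1722 in the Sp1 IDR-LacI lists. Of these, 384 (18.7%) lost theirs with rabbit and 440 (23%) with mouse, while 499 (23%) and 247 (14.3%) of the Sp1 IDR-LacI genes were new. Genes with a peak in all 4 lists numbered 1211, those lost with both 75 and those new with both 70.

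Gene groups of basic cell functions had few members in the lists, and their shares are given with no test. Of 78 mitochondrial ribosomal protein genes, all 11 with a parental rabbit peak kept it and 6 of 10 with a parental mouse peak did. MRPS36 was new with both, at 10.1 (rabbit) and 11.7 (mouse). Of the ZNF genes, 43 of 52 kept a rabbit peak and 33 of 43 a mouse peak. ZNF160 (11.2 and 20.7), ZNF471 (9.64 and 17.0) and ZNF816 (9.53 and 9.97) were lost with both and ZNF414 was new with both.

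Of the proteasome genes, 4 of 6 kept a rabbit peak and 7 of 9 a mouse peak, and PSMC6, an ATPase of the regulatory particle, was lost with both from 18.0 and 10.2. Of the oxidative phosphorylation genes, 6 of 8 and 4 of 8 kept theirs. COX5B of cytochrome c oxidase was lost with both from 19.5 and 9.76, and NDUFS8 of complex I was new with both at 9.09 and 9.92. Cytosolic ribosomal protein genes kept 5 of 8 and 4 of 6 peaks, and aminoacyl-tRNA synthetase genes 6 of 7 and 2 of 5. Neither group had a member lost or new with both. The genes of Mediator, TFIID and RNA polymerase II kept 3 of 4 and 5 of 6, with MED26 new with both at 17.0 and 9.82.

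The SP and KLF factors kept 2 of 4 rabbit peaks and 5 of 7 mouse peaks. SP2 and KLF13 were lost with rabbit, from 42.0 and 37.6, and kept with mouse, at 24.9 then 15 and at 26.3 then 41.7. KLF5 and KLF7 were lost with mouse, from 10.4 and 15.4, and new with rabbit at 26.2 and 8.72. SP1 itself had a promoter peak in all 4 lists, at 72.7 and 78.3 in the parental line and 77.6 and 59.8 in the Sp1 IDR-LacI line (rabbit, then mouse). KLF16 was in all 4 as well, at 21.5 and 41.1, then 27.2 and 46.6, and KLF11 was new with both at 15.8 and 20.2. Among the classic Sp1 targets, PCNA, the replication clamp, had 13.5 and 35.4 in the parental and 26.0 and 20.4 in the Sp1 IDR-LacI lists, and TK1, thymidine kinase, had 16 and 21.1, then 18.2 and 11.8. No classic target with a parental peak lost it with either antibody. Of the replication-dependent histone genes, 1 had a peak in each of 3 lists and 0 in the Sp1 IDR-LacI mouse list. No site lay at PPP1R12C, the gene of the AAVS1 locus.

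The strength of shared peaks was compared after the log2 of each replicate's −log10 p had been set to a median of 0, so that a change is relative to the typical shared peak. With rabbit, 11 of 1561 shared sites passed limma's test (0.705%), all higher in the Sp1 IDR-LacI line, and with mouse 11 of 1389 (0.792%), again all higher. At an unadjusted p under 0.05 there were 129 and 111 sites. The median absolute change was 0.24 with each antibody, and 95% of changes were under 0.70 (rabbit) and 0.73 (mouse). Over the 1107 sites in all 4 lists, the rabbit and mouse changes differed at 0 sites by limma's interaction test, and at 30 by unadjusted p. The mean change of both antibodies passed at 24 sites that were higher (2.17%) and 4 that were lower (0.361%). That fit took all replicate columns as independent. Whether the rabbit and mouse samples of a line shared cultures is not stated. Shared cultures could make the standard errors and p-values of the mean too small. All replicate values were higher with each antibody at 68 sites (6.14%) and lower at 50 (4.52%).

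The 5 strongest sites of all 4 lists did not pass. CLPTM1L, next to TERT, had 136 and 198 in the parental lists and 137 and 157 in the Sp1 IDR-LacI lists (rabbit, then mouse). EEF2KMT, the methyltransferase of elongation factor 2, had 162 and 190, then 133 and 143, and MYO1F, a myosin, 144 and 208, then 108 and 156. PLAUR, the urokinase receptor, had 158 and 179, then 108 and 148, and PRDM9, a histone methyltransferase of meiotic recombination, 110 and 166, then 148 and 144. Their changes ran from −0.25 to 0.51 on the log2 scale, with adjusted p of at least 0.84 by limma. SP1 changed by 0.14 ± 0.35 (SE, rabbit, adjusted p = 0.97) and 0.02 ± 0.29 (mouse, adjusted p = 1, limma).

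At 4 sites the peak rose with each antibody. PCBP3, a poly(C)-binding protein, had parental promoter values of 21.9 and 25.8 with rabbit and 30.5 and 48.1 with mouse, and Sp1 IDR-LacI values of 62.3 and 60.2, and 55.3 and 72.7. Each value was above each parental value of the same antibody. The log2 change was 1.42 ± 0.30 (SE, n = 2 replicates a line) with rabbit (limma, adjusted p = 0.0017) and 1.34 ± 0.29 with mouse (adjusted p = 0.0013), or 2.67-fold and 2.54-fold on the −log10 p scale. In the other lines the site stood at 35.1 and 51.7 (Sp1 WT) and 41.8 and 53.7 (Sp1 IDR-CTCF DBD).

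PTPRU, a receptor tyrosine phosphatase, had 16 and 27.5 with rabbit and 20.6 and 42.7 with mouse in parental cells, against 51.9 and 50.8, and 48.8 and 57.5. Its promoter site rose by 1.35 ± 0.32 (limma, adjusted p = 0.0058) and 1.45 ± 0.32 (adjusted p = 0.0013) on the log2 scale. It has no GC box within 100 bp of its summit. The other lines had 33.0 and 66.1 (Sp1 WT), and 31.5 and 45.2 (Sp1 IDR-CTCF DBD), and all lines share the parental lists as their comparison.

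The other pair lay in tandem sequence, here a summit window in which at least 25% of 12-base words occur more than once. An intronic site of the noncoding gene ENSG00000262898, 0.0643 Mb from the end of chromosome 17, had 21.9 and 33.8, and 21.4 and 58.5, in parental cells, and 63.6 and 65.5, and 43.4 and 81.2, in the Sp1 IDR-LacI line. It rose by 1.30 ± 0.29 with rabbit (limma, adjusted p = 0.0033) and 1.36 ± 0.30 with mouse (adjusted p = 0.0013). An intronic site of JAKMIP3 went from 34.6 and 32.8, and 51.7 and 68.8, to 55.9 and 85.6, and 79.9 and 103. The change was 1.09 ± 0.29 (adjusted p = 0.022) and 1.22 ± 0.28 (adjusted p = 0.0031, limma). An intergenic site 5.4 kb from ENSG00000260416 rose with rabbit, from 25.6 and 85.4 to 143 and 163 (1.76 ± 0.33, limma, adjusted p = 0.00014). Its mouse values were 69.5 and 159, then 154 and 126 (1.02 ± 0.33, limma, adjusted p = 0.12). In the other lines ENSG00000262898 stood at 40.5 and 72.4 (Sp1 WT) and 39.0 and 34.8 (Sp1 IDR-CTCF DBD), rabbit then mouse. JAKMIP3 stood at 46.8 and 92.5, and 47.7 and 73.7, and ENSG00000260416 at 105 and 118, and 118 and 108. Each of these was above the merged parental value of the same antibody. Of the 31-base words at the summit, 64.3% at ENSG00000262898, 100% at JAKMIP3 and 50.9% at ENSG00000260416 occur at more than 1 position in hg38. At PCBP3 and PTPRU this share was 0.0%.

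These rises rest on few replicates. Without the first Sp1 IDR-LacI rabbit column, the 4 sites had log2 changes of 0.93 to 1.01 with rabbit and an adjusted p of 1 (limma), and 1 site in all passed with rabbit instead of 11. Without the first Sp1 IDR-LacI mouse column, PCBP3 and JAKMIP3 had an adjusted p of 0.19 and PTPRU of 0.35 with mouse. Without the second, ENSG00000262898 had 0.35, and PCBP3 and JAKMIP3 had 0.051. Without the second Sp1 IDR-LacI rabbit column, JAKMIP3 had 0.18 with rabbit, and without the first, ENSG00000260416 had 0.12. Leaving out the second parental column gave an adjusted p of 0.32 (rabbit) and 0.2 (mouse) at JAKMIP3 and of 0.054 (mouse) at PCBP3, and leaving out the first gave 0.06 (mouse) at ENSG00000262898 and 0.97 (rabbit) at ENSG00000260416. Where 1 of the 4 sites lost its call the log2 change was 0.69 to 1.40, and over all fits without 1 column it was 0.69 to 1.84.

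No fall passed with either antibody alone when all replicate columns were used. With mouse, 5 sites passed as lower and 4 as higher without the first parental column, and 4 as lower and 22 as higher without the second. With rabbit, 1 site passed as lower without the second parental or the second Sp1 IDR-LacI column. CHEK2, the DNA damage checkpoint kinase, shares its promoter with HSCB and had 47.7 and 51.2 with rabbit and 61.3 and 72.8 with mouse in parental cells, against 17.3 and 38, and 24 and 25.1. The log2 change was −0.89 ± 0.31 (limma, adjusted p = 0.3) and −0.83 ± 0.32 (adjusted p = 0.27), and the mean of both was −0.84 ± 0.22 (adjusted p = 0.022). In the other lines it stood at 17.0 and 17.3 (Sp1 WT) and 17.3 and 18.9 (Sp1 IDR-CTCF DBD). The mean change was −0.79 at AZIN2, an antizyme inhibitor (adjusted p = 0.049), and −0.72 at ADK, adenosine kinase (adjusted p = 0.049). It was −0.70 at CDC23 of the anaphase-promoting complex (adjusted p = 0.12), which passed with mouse without the second parental column (−1.29, adjusted p = 0.042), and −0.62 at C1orf50 (adjusted p = 0.16). RNFT2, named after its values were seen, was the fourth site that fell in the mean (−0.86 ± 0.24, limma, adjusted p = 0.039). ADK had 55.8 and 45.7 in the parental line (rabbit, then mouse), 20.6 and 21.8 with Sp1 WT, and 30.3 and 15.3 with Sp1 IDR-CTCF DBD. AZIN2 had 33.8 and 33.4, then 21.6 and 10.2, then 21.6 with rabbit and no mouse peak. RNFT2 had 27.5 and 32.2, then 12.8 and 11.8, and was absent from both Sp1 IDR-CTCF DBD lists. On normal scores of the ranks 0 sites passed as lower, as without either first parental column, the first Sp1 IDR-LacI rabbit column or either Sp1 IDR-LacI mouse column, and 9 passed without the second parental rabbit column.

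**Figure D4:**
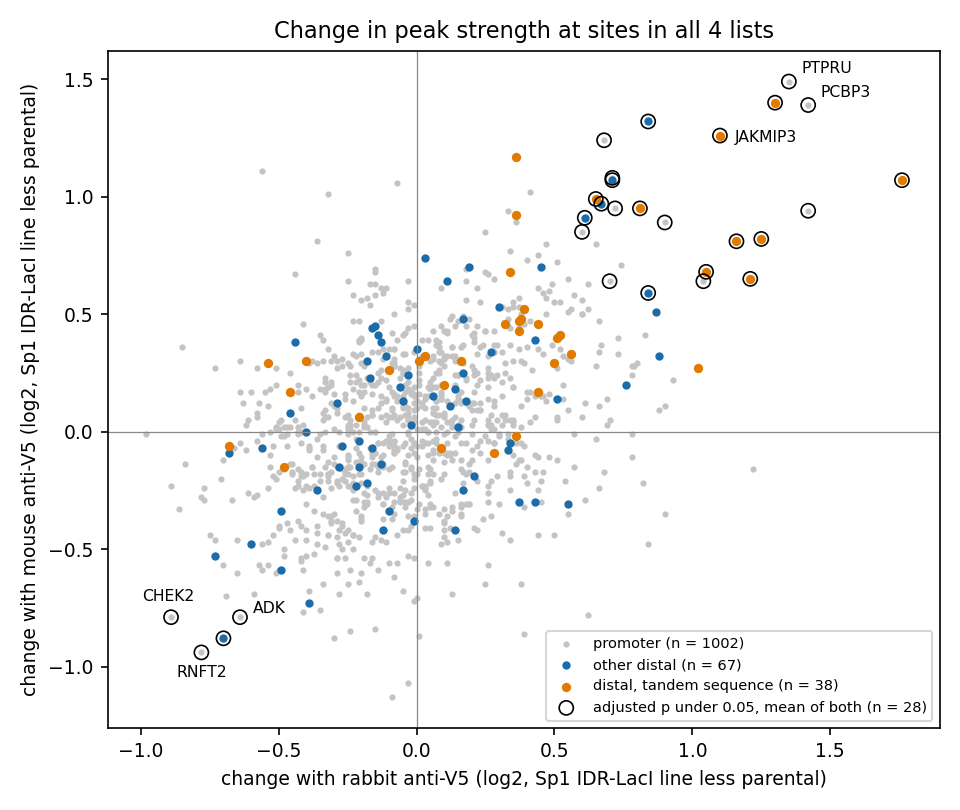
Change in peak strength (log2, Sp1 IDR-LacI less parental) with rabbit (x axis) and mouse anti-V5 (y axis) at the 1107 sites of all 4 lists, with promoter (grey), other distal (blue) and distal tandem sites (orange). Circles mark the 28 sites at which the mean of both antibodies passed limma's test, of which 24 lie at the upper right and 4 at the lower left.

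The sites that rose were more often distal than the sites fitted. Of the 11 rabbit sites, 6 were distal (54.5%, against 9.29% of the fitted sites) and 6 tandem (54.5 against 5.64%). Of the 11 mouse sites, 6 were distal (54.5 against 10.1%) and 6 tandem (54.5 against 8.06%). Of the 24 sites that rose in the mean of both, 14 were distal (58.3 against 9.49%) and 10 tandem (41.7 against 7.23%). Repeated sequence held 5 of the 11 rabbit sites (45.5 against 4.55%) and 5 of the 11 mouse sites (45.5 against 5.54%). It held 6 of the 24 sites of the mean (25.0 against 4.34%). The tandem and repeated classes were set after the values were seen. The distal class was planned for the peak lists, but its use here was not. All these shares are given with no test.

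The median scaled strength of the 1002 promoter sites was within 0.03 of 0 in all 8 replicates. The scaling sets this, since promoters make up most of the 1107 sites whose median was set to 0. A shift shared by promoters could not show, and changes of other classes are relative to them. The 105 distal sites had medians of −0.02 and −0.11 with rabbit and 0.06 and 0.00 with mouse in the parental line, against 0.15 and 0.15, and 0.43 and 0.32. Their median change was 0.14 (rabbit) and 0.25 (mouse), and the mouse change was 0.11 after quantile normalization and 0.14 on normal scores of the ranks. All replicate values were higher with each antibody at 25 distal sites (23.8%) and 43 promoter sites (4.29%). The 38 distal tandem sites had parental medians of 0.26 and 0.20 with rabbit and 0.57 and 0.53 with mouse, against 0.88 and 0.57, and 1.00 and 0.84, so that the lines did not overlap with either antibody. The other 67 distal sites had −0.15 and −0.13, and −0.14 and −0.20, against −0.25 and −0.10, and −0.17 and −0.12, and the lines overlapped with each antibody. At the 42 promoter tandem sites the median changes were 0.05 (rabbit) and 0.17 (mouse), against 0.37 and 0.40 at the distal ones. The tandem class was set after the sequences of sites that rose were seen. It holds some of those sites, so its medians give no separate support. The median rank was 80.3 at the distal tandem sites and 57.8 at the other distal sites. Over all 1107 sites the median mouse change was 0.13 in the strongest 25% and −0.05 in the weakest 25%, and the rabbit change −0.03 and −0.01. Within 1 Mb of a chromosome end, 54 sites had median changes of 0.26 and 0.29, and the 15 distal ones among them 0.44 and 0.47. A part of copy number, depth or mapping in these values was not tested.

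**Figure D5:**
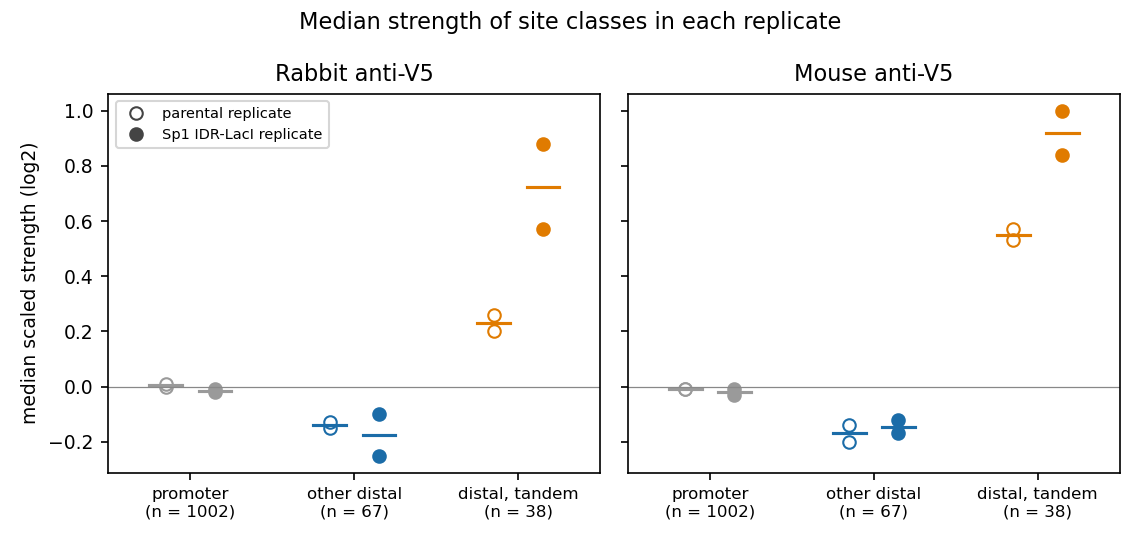
Median scaled strength (log2, y axis) of promoter, other distal and distal tandem sites (x axis) in each parental (open) and Sp1 IDR-LacI replicate (filled), with rabbit (left) and mouse anti-V5 (right), and bars at the mean of the replicates. Distal tandem sites lie at 0.20 to 0.57 in the parental and at 0.57 to 1.00 in the Sp1 IDR-LacI replicates.

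Tandem sequence was also found at 13 of the 82 sites new with both antibodies (15.9%, 9.51 to 25.3%), at 2 of the 81 lost (2.47%, 0.68 to 8.56%) and at 80 of the 1107 kept (7.23%, 5.84 to 8.9%).

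In the full lists, which differ in length, the Sp1 IDR-LacI line lost fewer sites with both antibodies than the other construct lines. Of the 1498 sites in both parental lists, which the 3 lines share as their reference, 81 (5.41%) were in neither list of the Sp1 IDR-LacI line. The same held for 215 (14.4%) in the Sp1 WT line and 117 (7.81%) in the Sp1 IDR-CTCF DBD line. Sites lost in 1 line of the pair numbered 27 for Sp1 IDR-LacI and 161 for Sp1 WT (exact binomial test, adjusted p = 4e-24 over 2 tests), and 40 and 76 against Sp1 IDR-CTCF DBD (exact binomial test, adjusted p = 0.0011). The lists also differed in length, with 1790 (rabbit) and 1332 (mouse) peaks for Sp1 WT and 2172 and 1413 for Sp1 IDR-CTCF DBD. With lists of equal length the numbers were 37 and 56 (exact binomial test, adjusted p = 0.12), and 28 and 35 (adjusted p = 0.45), so that the difference between lines was no longer past the threshold.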

How the data were processed

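Reads had been trimmed (Cutadapt 2.6), mapped to hg38 (Bowtie2 2.3.5.1) and freed of duplicates (SAMtools 1.9) by the authors, per the labels and the study's methods. MACS3, whose version is given as 2.2.7.1, then called peaks per replicate (p of 1e-3, control replicates merged). Peaks whose irreproducible discovery rate (IDR) between replicates was at most 0.1 make up the deposited lists. The −log10 p-values deposited by the authors are those of the merged peak and of each replicate. The deposited score, the −log10 of the global IDR, was used for stricter thresholds. A −log10 p grows with read depth, which was not analysed here, so values were ranked within a list or scaled.

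Peaks overlapped when they shared at least 1 bp. Starts came from GENCODE 44 (promoter within 1000 bp). Shares were compared by Fisher's exact or exact binomial tests (SciPy 1.17.1, two-sided, Benjamini-Hochberg adjustment). Strength was tested with limma 3.58.1 in R 4.3.3 (intensity trend, threshold 0.05) on log2 of the replicate values, each column set to a median of 0 over the sites fitted. The code was tested on simulated data. Other software was Python 3.11.15, pandas 2.3.3, NumPy 2.4.6, pysam 0.24.0 and matplotlib 3.10.9.

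The rule named the 10 strongest sites lost and the 10 new with both antibodies, the 5 strongest in all 4 lists, the 5 largest rises and falls by the smaller of the antibodies' changes with every replicate value separated, and sites at SP1 and PPP1R12C, each by the nearest start. The members, gene lists and tests were chosen with earlier results of these data known. Tandem sequence, distance to chromosome ends, repeated sequence and the mean of both antibodies were added after values were seen.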

Additional observations from a re-analysis of the deposited data

How the results depend on the processing

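The kept share with rabbit was 81.4% at an IDR of at most 0.05, 84.2% at 0.01 and 76.6% with lists of equal length, which gave 78.7% with mouse. At an IDR of 0.01, 31 sites were lost with both antibodies, and the rabbit odds ratios of promoter against distal peaks were 1.61 for kept parental peaks (Fisher's exact test, adjusted p = 0.12) and 1.35 for Sp1 IDR-LacI peaks found again (adjusted p = 0.14). With lists of equal length the line comparisons gave 37 sites against 56 and 28 against 35. Sites that passed limma's test numbered 6 with rabbit on normal scores of the ranks and 6 without repeated sequence, 5 with mouse without repeated sequence and 6 in 1 fit of 4 groups, and 18 for the mean of both antibodies on normal scores. Leaving out each replicate column in turn gave 1 to 17 sites with rabbit, 4 to 26 with mouse and 9 to 46 for the mean of both. The lone column left in a line is then assumed to vary like the other group. The fewest came without a first Sp1 IDR-LacI column and the most without a second parental column. The median change of distal sites was 0.12 to 0.19 with rabbit and 0.11 to 0.19 with mouse under other scalings and without repeated sequence. No paired analysis was possible because the replicate columns do not carry the labelled replicate numbers, and the fit with a replicate block was not run. None of the 11 rabbit and 11 mouse sites that passed changed sign under the 9 alternatives run for each antibody, nor did any of the 28 sites of the mean under 12, where the site could be fitted. The cause of these shifts was not tested.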

Other observations

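Sites named in the next sentences were chosen after their values were seen. Of the 11 mouse anti-V5 sites that rose, 4 were absent from the parental rabbit list and present in the other 3 lists. At FGFR3P6, a pseudogene, the mouse values were 24.3 and 147 in the parental line and 80.7 and 146 in the Sp1 IDR-LacI line (log2 change 1.48 ± 0.29, limma, adjusted p = 0.00014). At ENSG00000268120 they were 18.7 and 150, then 101 and 126 (1.71 ± 0.29, adjusted p = 1.8e-06). At both sites the second parental value was above both Sp1 IDR-LacI values before scaling. At an intronic site of PRKAR1B they were 14.5 and 62.2, then 69.1 and 71.4 (1.84 ± 0.30, limma, adjusted p = 1.7e-06), and at one of HELZ2, a nuclear receptor coactivator, 9.52 and 28.3, then 27.1 and 35.9 (1.54 ± 0.34, adjusted p = 0.0013). GTPBP6, in the pseudoautosomal region, was absent from the parental mouse list and rose with rabbit from 15.1 and 63.7 to 54.7 and 102 (1.32 ± 0.29, limma, adjusted p = 0.0022). Promoter sites of TBCD, a tubulin-folding cofactor, and ZNF367, a zinc finger gene, rose with rabbit by 1.42 ± 0.32 (limma, adjusted p = 0.0042) and 1.21 ± 0.32 (adjusted p = 0.024). Their mouse changes were 0.90 ± 0.30 (adjusted p = 0.16) and −0.20 ± 0.34 (adjusted p = 0.94).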
